A study of Equus caballus with 18 samples.

Results

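The conjugating enzymes of the ubiquitin system and the F-box proteins were examined in horse gluteal muscle before and during clenbuterol administration. Members were all genes with a platform symbol beginning UBE2, FBXO, FBXL or FBXW, taken from probesets assigned to a single gene, and where a gene had several such probesets the one with the highest mean was used. FBXO32 and FBXO30, the atrophy ligases, were left out. The rule found 83 of the 16661 genes with a probeset of their own, of which 28 were conjugating enzymes (UBE2) and 55 were F-box proteins (17 FBXL, 31 FBXO and 7 FBXW). The symbols covered 85 probesets, since FBXO17 and FBXO22 had 2 each. UBE2E2, UBE2K, UBE2N, UBE2QL1, UBE2V2, FBXO43 and FBXO44 had no single-gene probeset and were not analysed here. The rule goes by symbol, so that F-box proteins with other symbols, such as SKP2, CCNF and BTRC, are not among the 55. Names are those of the platform annotation and no sequences are given.

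Ubiquitin is attached to proteins by a relay in which an activating enzyme charges a conjugating enzyme, and a ligase then brings the charged enzyme to a substrate. Conjugating enzymes are few and shared between many ligases, and the one that acts largely sets the kind of chain that is built. F-box proteins are substrate receptors: each binds SKP1 and thereby CUL1, so that a chosen protein is placed beside the charged conjugating enzyme, and in skeletal muscle this system feeds myofibrillar and metabolic proteins to the proteasome during atrophy and remodelling.

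Muscle RNA of 9 exercised adult Thoroughbred horses was hybridised to 18 EquGene-1.0-st arrays, 1 before the first dose (baseline) and 1 during administration for each horse. Horses E1 to E4 received the escalating dosing regimen of oral clenbuterol, a β2-adrenergic receptor agonist (steps of 0.8, 1.6 and 2.4 μg/kg, each given BID over 3 days, then 21 days at 3.2 μg/kg), and were sampled on day 28 and at baseline. Horses L1 to L5 received 0.8 μg/kg BID over 30 days, the low dose, and were sampled on day 14 and at baseline. No untreated horses were arrayed alongside, so that drug and elapsed time cannot be told apart within a regimen, nor dose and sampling day between regimens. All values are log2 intensities. A gene was called where limma, with the horse as a block, gave an adjusted p-value under 0.05 over all 30559 probesets.

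Arrays of the escalating regimen correlated at 0.937 to 0.959 among the day 28 samples, at 0.952 to 0.976 among the baseline samples and at 0.780 to 0.809 between the samples of a horse. In the low dose regimen the arrays of L1, L2 and L3 correlated at 0.933 to 0.973, whereas those of L4 and L5 stood apart, correlating with them at only 0.557 to 0.845. Array medians were 4.45 to 4.50 on day 28 and 4.06 to 4.22 at baseline of the escalating regimen, and 2.42 to 2.74 on day 14 and 2.50 to 2.69 at baseline of the low dose, so that only changes were compared between regimens. Every day 28 array was less spread than every baseline array of its regimen, with SDs over probesets of 1.49 to 1.53 against 1.71 to 1.80. The part of this narrowing in the changes of members was not tested. At the low dose the SDs were 1.20 to 1.75 on day 14 and 1.31 to 1.69 at baseline. All 7 muscle markers averaged between 8.98 and 12.8 on day 28 and between 9.78 and 12.8 at baseline of the escalating regimen; MB, RYR1 and TNNT3 were lower on day 28 (-1.53, -0.80 and -0.52), and ACTA1, CKM, MYBPC1 and DES were not called. Over all single-symbol genes, 28.4% were called lower and 21.9% higher on day 28 than at baseline.

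Following the escalating regimen, most conjugating enzymes were down-regulated, whereas the F-box proteins were lower or higher about as often as all genes. Of the 28 conjugating enzymes, 21 were lower on day 28, 1 was higher and 6 were not called. This stands against 44.7% of all probesets called, 20.2% lower and 24.5% higher, and 28.4% lower and 21.9% higher of all single-symbol genes. Of the 55 F-box proteins, 18 were lower, 9 were higher and 28 were not called, that is 32.7% lower and 16.4% higher, beside 28.4% and 21.9% of all single-symbol genes. This split depended on the scaling, with 19 F-box proteins lower and 8 higher after quantile normalization, 26 and 7 after centring each array on its median, and 15 and 13 after cyclic loess, whereas the conjugating enzymes gave 20 and 2, 22 and 1, and 16 and 2 under the same scalings. The median change was -1.53 for conjugating enzymes, -0.145 for F-box proteins and -0.03 for all single-symbol genes. The 4 day 28 values lay entirely below the 4 baseline values for 21 conjugating enzymes and 18 F-box proteins, and entirely above them for 1 and 10, with 43.8% of all probesets not overlapping, 19.7% lying below and 24.1% above.

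**Figure D1:**
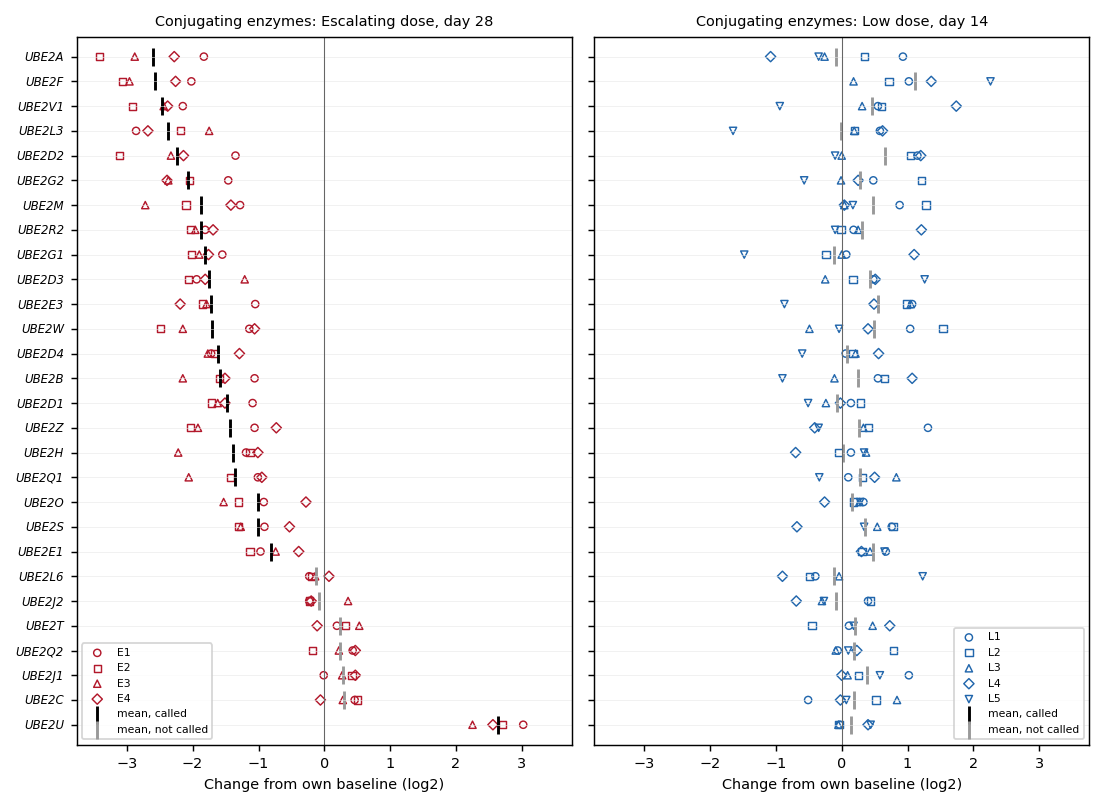
Change of each conjugating enzyme from the horse's own baseline (x axis, log2) at the escalating dose (left, 4 horses) and the low dose (right, 5 horses), with genes ordered by their mean change at the escalating dose; symbols are horses and bars are means, black where called. At the escalating dose 21 genes are called below 0 and UBE2U stands alone at 2.63, whereas no gene is called at the low dose.

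The enzymes with the largest decreases belonged to different branches of the relay. UBE2A, one of a pair of RAD6-type enzymes that monoubiquitinate histone H2B, had values of 4.93, 3.89, 4.22 and 4.58 on day 28 in horses E1 to E4, against 6.76, 7.31, 7.10 and 6.86 at baseline. Every day 28 value lay well below every baseline value, and UBE2A fell by 2.60 on the log2 scale (SE 0.26, adjusted p = 3.2e-04, lower in 4 of 4 horses). Its partner UBE2B fell by 1.58 (SE 0.20, adjusted p = 7.2e-04). Against genes of the same brightness, a comparison described below, UBE2A lay at -2.12 but UBE2B at only -0.17.

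UBE2F and UBE2M do not carry ubiquitin but NEDD8, the modifier that switches cullin ligases on. UBE2F had values of 4.00, 3.37, 3.69 and 3.86 on day 28, against 6.02, 6.43, 6.65 and 6.12 at baseline. It fell by 2.58 (SE 0.21, adjusted p = 1.6e-04) and the groups were separated by 2.02 log2 units. UBE2M had values of 3.13, 3.33, 3.31 and 3.13 on day 28, against 4.41, 5.43, 6.03 and 4.55 at baseline. The baseline horses differed widely (SD 0.76, n = 4) while the day 28 horses lay within a narrow range (SD 0.11, n = 4), and UBE2M fell by 1.88 (SE 0.25, adjusted p = 0.0010).

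UBE2V1, a catalytically inactive variant that works with UBE2N in chains used for signalling, had values of 5.50, 5.27, 5.63 and 5.61 on day 28, against 7.65, 8.18, 8.07 and 7.99 at baseline. The day 28 values were tightly grouped and the decrease was 2.47 log2 units (SE 0.17, adjusted p = 9.0e-05); UBE2N itself was not analysed here. UBE2L3, the enzyme that serves HECT and RING-between-RING ligases such as parkin, had values of 6.32, 6.98, 6.89 and 6.44 on day 28, against 9.18, 9.16, 8.64 and 9.12 at baseline. It fell by 2.37 (SE 0.21, adjusted p = 2.0e-04), with the lowest baseline value, that of E3, still 1.66 above the highest day 28 value. A further probeset assigned jointly to UBE2L3 and an uncharacterised locus changed by -0.05 (adjusted p = 0.85), so that probes carrying this name disagreed.

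All 3 measured enzymes that extend degradation chains were lower on day 28. Beside this, 28.4% of all single-symbol genes and 74.5% of the brightest of 5 equal groups of genes were called lower. Relative to genes of the same brightness, a comparison described below, UBE2G2, UBE2R2 and UBE2G1 lay at -0.825, -0.465 and -0.40. UBE2G2, which acts in the degradation of misfolded proteins of the endoplasmic reticulum, had values of 6.27, 6.40, 6.01 and 5.41 on day 28, against 7.73, 8.45, 8.38 and 7.80 at baseline. It fell by 2.07 (SE 0.19, adjusted p = 2.4e-04) without overlap. UBE2R2, a partner of the cullin ligases, had values of 6.37, 6.15, 6.32 and 6.57 on day 28, against 8.18, 8.18, 8.28 and 8.26 at baseline. Its SE was the smallest of the 21 lower enzymes and it fell by 1.87 (SE 0.14, adjusted p = 1.2e-04), while UBE2G1 fell by 1.81 (SE 0.15, adjusted p = 1.5e-04).

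All 7 measured enzymes that place the first ubiquitin for many ligases were also lower, with a median change of -1.71. The shares called lower were 28.4% of all single-symbol genes and 74.5% of the brightest of 5 equal groups. Relative to genes of the same brightness, UBE2D1, UBE2D4, UBE2D3 and UBE2E1 lay at -0.08, -0.205, -0.35 and 0.16. On the same measure UBE2D2, UBE2E3 and UBE2W lay at -0.99, -0.75 and -1.015. UBE2D2 had values of 6.43, 5.19, 5.44 and 5.59 on day 28, against 7.78, 8.30, 7.77 and 7.73 at baseline. It fell by 2.23 (SE 0.27, adjusted p = 6.4e-04), and its near relatives UBE2D3, UBE2D4 and UBE2D1 fell by 1.76, 1.61 and 1.49. UBE2E3 and UBE2W, of which the second attaches ubiquitin to the amino terminus of substrates, fell by 1.72 and 1.71. UBE2E1 had the smallest decrease of all called conjugating enzymes, with values of 5.50, 5.94, 5.87 and 6.19 on day 28, against 6.47, 7.07, 6.61 and 6.58 at baseline. It fell by 0.81 (SE 0.17, adjusted p = 0.0069). The UBE2D transcripts are close paralogs and probes may be shared between them.

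UBE2Z, the enzyme charged by UBA6, fell by 1.44, and UBE2H, UBE2Q1 and UBE2O fell by 1.39, 1.36 and 1.01. Of the enzymes of the anaphase-promoting complex, UBE2S, which elongates its chains, fell by 1.00 (SE 0.18, adjusted p = 0.0033), whereas UBE2C, which starts them, changed by 0.30 and was not called (SE 0.16, adjusted p = 0.17). The other members that were not called were UBE2L6 (-0.12), which carries the interferon-induced modifier ISG15, the membrane-anchored enzymes UBE2J1 (0.29) and UBE2J2 (-0.08) of the endoplasmic reticulum, UBE2T (0.23) of the Fanconi anaemia pathway, and UBE2Q2 (0.24). Their adjusted p-values ran from 0.16 to 0.75. UBE2J1 was called higher after quantile normalization (0.74, adjusted p = 0.012) and after cyclic loess (1.11, adjusted p = 0.0025), and UBE2L6 was called lower after median centring (-0.445, adjusted p = 0.039).

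UBE2U, a divergent and little studied member of the family, was the exception. It had values of 6.30, 5.70, 6.06 and 6.12 on day 28, against 3.28, 3.00, 3.81 and 3.56 at baseline. The groups were separated by 1.89 log2 units, and UBE2U rose by 2.63 (SE 0.17, adjusted p = 8.2e-05, higher in 4 of 4 horses). The decrease of all 21 enzymes and the increase of UBE2U passed the same test when any 1 of the 4 horses was left out. UBE2B, UBE2D1, UBE2D3, UBE2E1 and UBE2H were not called after cyclic loess scaling, UBE2E1, UBE2H, UBE2O, UBE2W and UBE2Z not by the methods' paired test, and UBE2E1 not after quantile normalization.

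**Figure D2:**
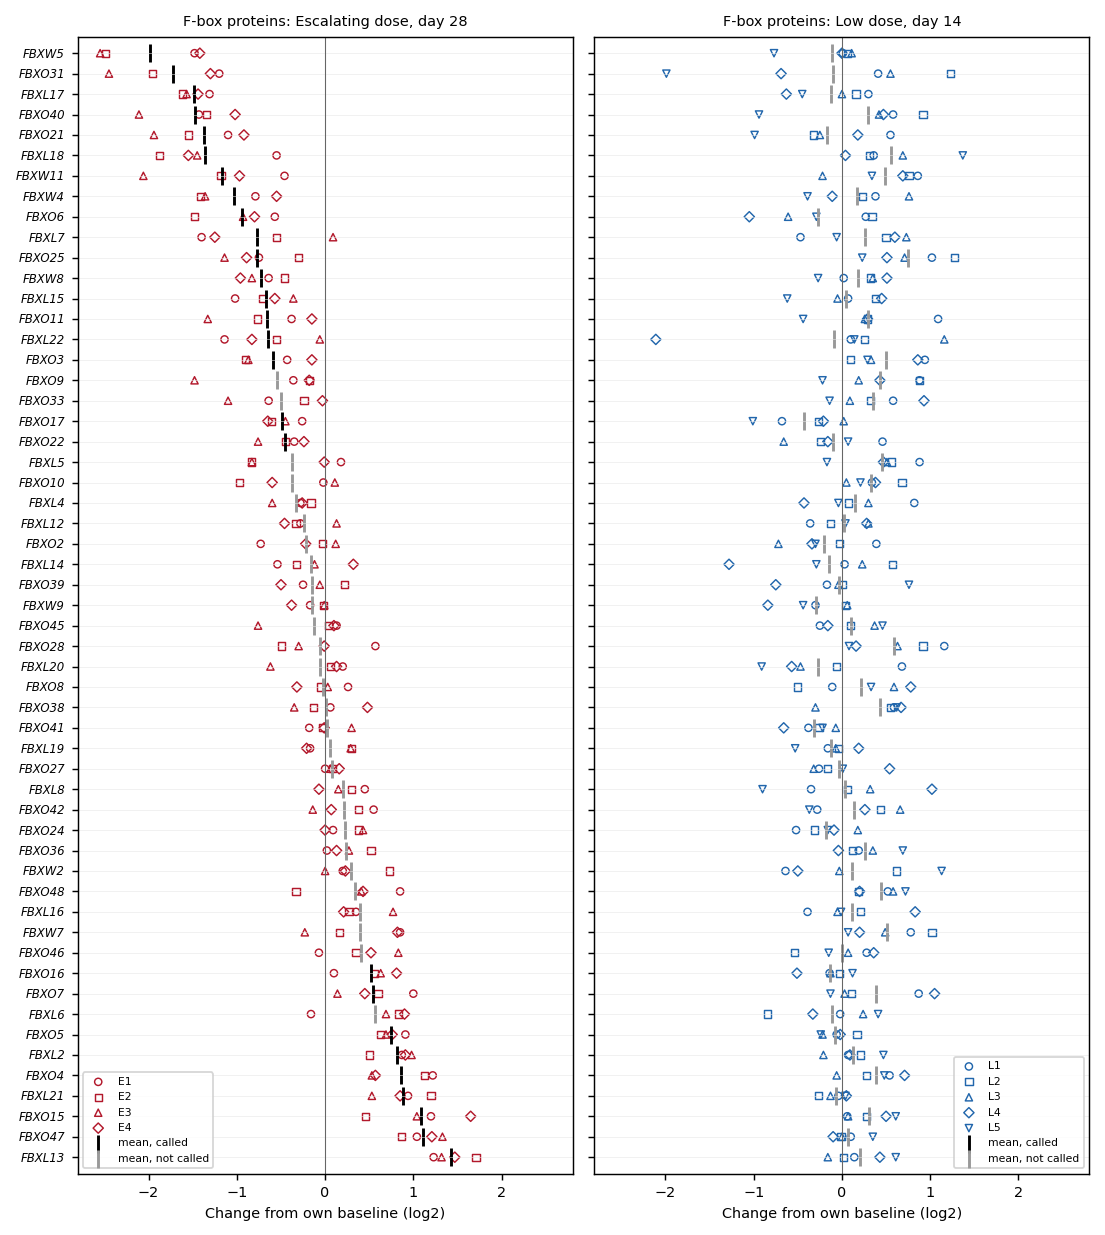
Change of each F-box protein from the horse's own baseline (x axis, log2) at the escalating dose (left, 4 horses) and the low dose (right, 5 horses), with genes ordered by their mean change at the escalating dose; symbols are horses and bars are means, black where called. At the escalating dose the means run from -1.99 for FBXW5 to 1.43 for FBXL13, with 18 genes called lower and 9 higher, and no gene is called at the low dose.

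Among the F-box proteins, all 4 on a list with a known place in striated muscle were lower on day 28. Of all single-symbol genes 28.4% were lower, with 74.5% in the brightest of 5 equal groups and 38.5% in the next. Relative to genes of the same brightness, FBXO40 lay at only -0.07, and FBXO21, FBXO31 and FBXL22 at -1.015, -0.76 and -0.54. FBXO40, a muscle-restricted receptor that in mice directs the turnover of IRS1, had values of 6.55, 7.04, 6.53 and 7.10 on day 28, against 7.98, 8.38, 8.64 and 8.12 at baseline. It fell by 1.48 (SE 0.20, adjusted p = 0.0010) without overlap. FBXO21, induced in atrophying muscle of mice, had values of 4.71, 4.99, 4.64 and 4.43 on day 28, against 5.81, 6.54, 6.58 and 5.35 at baseline. The baseline horses fell into a higher pair (E2 and E3) and a lower pair (E1 and E4), and FBXO21 fell by 1.38 (SE 0.20, adjusted p = 0.0014). FBXO31, a receptor for cyclin D1, showed the same order of horses at baseline, with values of 5.37, 5.23, 5.05 and 5.22 on day 28, against 6.57, 7.19, 7.50 and 6.52 at baseline. It fell by 1.73 (SE 0.23, adjusted p = 0.0010). FBXL22, which in heart muscle acts on Z-disc proteins, fell by 0.65 (SE 0.20, adjusted p = 0.035), and this call was lost when E1, E2 or E4 was left out.

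The largest decrease of any F-box protein was that of FBXW5, a receptor that can also work through CUL4. It had values of 5.89, 5.40, 5.22 and 6.10 on day 28, against 7.37, 7.89, 7.77 and 7.52 at baseline, and it fell by 1.99 (SE 0.24, adjusted p = 6.5e-04). The horses with the highest baseline values, E2 and E3, had the lowest values on day 28. FBXL17, which removes wrongly paired BTB proteins, had values of 6.69, 6.26, 6.66 and 6.40 on day 28, against 8.00, 7.88, 8.23 and 7.84 at baseline, and it fell by 1.49 (SE 0.14, adjusted p = 2.4e-04). FBXL18 had values of 4.63, 4.09, 4.01 and 4.22 on day 28, against 5.18, 5.97, 5.46 and 5.77 at baseline, and it fell by 1.36 (SE 0.23, adjusted p = 0.0026). Neither gene overlapped between days, and for FBXL18 the change was smallest in E1. Against genes of the same brightness FBXW5 and FBXL18 lay at -0.74 and -1.29, but FBXL17 at only -0.08.

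Of the remaining lower F-box proteins, FBXW11 (a β-TrCP receptor), FBXW4, FBXW8 and the glycoprotein receptor FBXO6 fell by 1.17, 1.03, 0.72 and 0.95, and FBXO25 fell by 0.77 (SE 0.17, adjusted p = 0.010). FBXL7, FBXL15, FBXO11, FBXO3, FBXO17 and FBXO22 fell by 0.45 to 0.78 and lost their call when some single horses were left out: E1, E2 or E4 for FBXL7, E1 or E2 for FBXL15, E1, E2 or E3 for FBXO11 and FBXO3, E2, E3 or E4 for FBXO17, and any of the 4 for FBXO22. The second probesets of FBXO17 and FBXO22 changed by -0.19 (adjusted p = 0.48) and -0.08 (adjusted p = 0.73) and were not called.

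Of the 9 higher F-box proteins, 5 lay in the dimmest of 5 equal groups of genes. FBXL13, a subunit of a dynein regulator of motile cilia, had values of 4.62, 4.51, 4.52 and 4.73 on day 28, against 3.39, 2.80, 3.20 and 3.26 at baseline. Day 28 values were nearly identical between horses, and FBXL13 rose by 1.43 (SE 0.15, adjusted p = 3.4e-04). FBXO47, known from meiosis in mice, had values of 3.67, 3.64, 4.03 and 3.93 on day 28, against 2.63, 2.77, 2.70 and 2.72 at baseline, and it rose by 1.11 (SE 0.15, adjusted p = 9.1e-04). FBXO15, known from mouse embryonic stem cells, had values of 3.74, 2.90, 3.63 and 4.23 on day 28, against 2.54, 2.44, 2.59 and 2.58 at baseline. It rose by 1.09 (SE 0.21, adjusted p = 0.0047), with E4 highest and E2 lowest on day 28.

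FBXL21, which acts on the cryptochromes of the circadian clock, had values of 4.06, 3.95, 3.58 and 3.78 on day 28, against 3.12, 2.75, 3.05 and 2.93 at baseline, and it rose by 0.88 (SE 0.16, adjusted p = 0.0037). FBXO4, another receptor described for cyclin D1, had values of 5.06, 4.55, 3.96 and 4.42 on day 28, against 3.84, 3.42, 3.43 and 3.85 at baseline, and it rose by 0.86 (SE 0.18, adjusted p = 0.0064). FBXL2 had values of 3.87, 3.57, 3.72 and 3.71 on day 28, against 3.00, 3.07, 2.74 and 2.80 at baseline, and it rose by 0.82 (SE 0.15, adjusted p = 0.0038). For each of these genes the lowest day 28 value exceeded the highest baseline value, though for FBXO4 by only 0.11. FBXO5, the inhibitor of the anaphase-promoting complex, rose by 0.75 (SE 0.14, adjusted p = 0.0039).

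FBXO7 and FBXO16 rose by 0.55 and 0.53, FBXO7 losing its call without E1, E2 or E4 and FBXO16 without E2, E3 or E4. FBXL6 changed by 0.57 (adjusted p = 0.063) and was called when E1 was left out. FBXW7, the receptor for MYC and cyclin E, changed by 0.40 (SE 0.22, adjusted p = 0.18) as deposited, but by 0.80 (adjusted p = 0.016) after quantile normalization and by 1.11 (adjusted p = 0.0042) after cyclic loess, and was then called. FBXL5, the iron sensor, changed by -0.37 (adjusted p = 0.21). FBXW9 was at -0.145 as deposited and was called lower under each of the other scalings (-0.47 to -0.51), and FBXO2 was at -0.215 and was called lower after median centring (-0.54). Of the FBXW proteins 4 of 7 were lower and none higher (median -0.72), of the FBXL proteins 5 of 17 were lower and 3 higher (median -0.17), and of the FBXO proteins 9 of 31 were lower and 6 higher (median -0.06). The FBXL (29.4% lower, 17.6% higher) and FBXO (29.0% lower, 19.4% higher) shares lay near those of all single-symbol genes. Among the F-box proteins named for their size or role, FBXL17, FBXO40, FBXW11, FBXO17 and FBXO4 were not called after cyclic loess, FBXL18, FBXL22, FBXO25, FBXO6, FBXW11, FBXO15 and FBXO4 not by the paired test, and FBXL2 and FBXO4 not after quantile normalization.

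**Figure D3:**
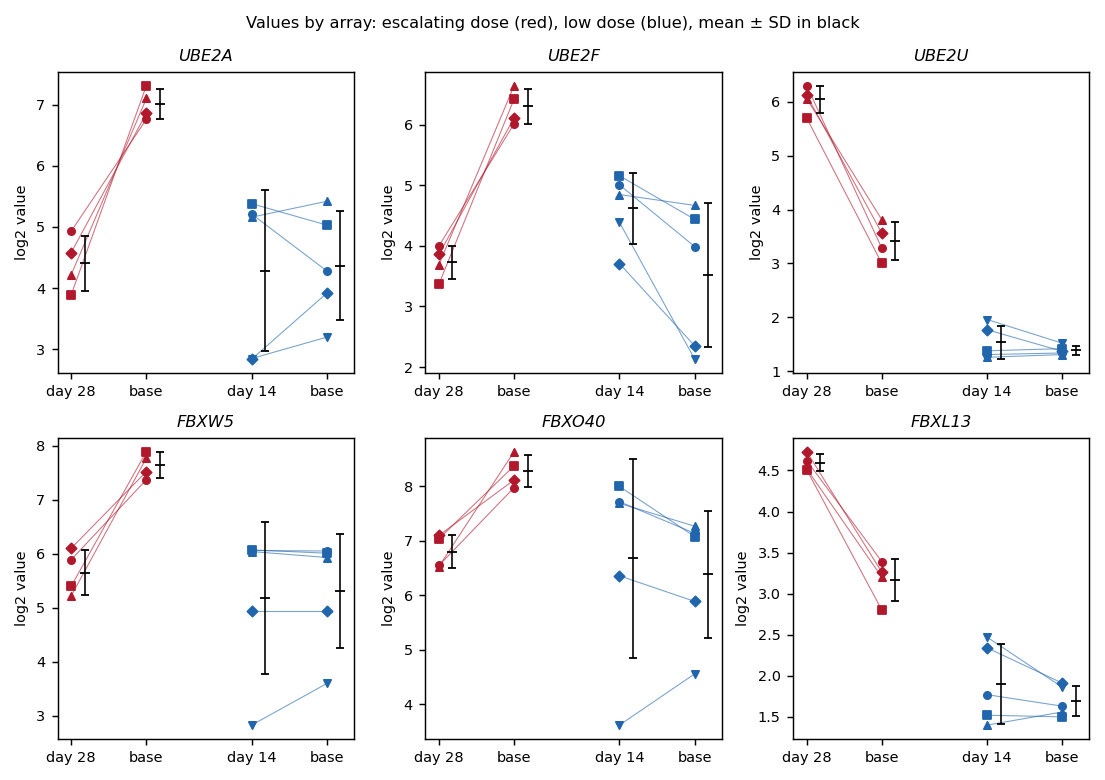
Values of 6 genes (log2) in each array, lines joining the arrays of a horse, with day 28 left of baseline for the escalating dose (red, n = 4) and day 14 left of baseline for the low dose (blue, n = 5), and mean ± SD in black. UBE2A, UBE2F, FBXW5 and FBXO40 are lower on day 28 and UBE2U and FBXL13 higher in each of the 4 horses, while at the low dose L4 and L5 lie below the other horses for UBE2A, FBXW5 and FBXO40 at both times.

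Within each horse of the escalating regimen, the median change of the conjugating enzymes lay below that of the F-box proteins. The conjugating enzymes had medians of -1.08, -1.70, -1.78 and -1.18 in E1 to E4, against -0.17, -0.13, -0.06 and -0.07 for the F-box proteins and -0.07, -0.02, 0.02 and -0.06 for all single-symbol genes. The difference between the classes was -0.91, -1.57, -1.72 and -1.11 (mean -1.32 ± 0.38, SD, n = 4 horses) and was larger in E2 and E3 than in E1 and E4. It is given without a test because members were chosen with earlier results known.

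**Figure D4:**
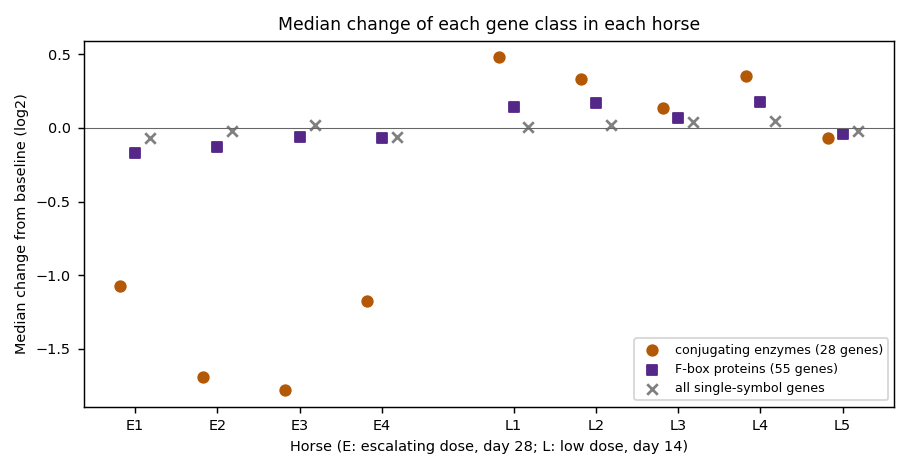
Median change from baseline (y axis, log2) of 28 conjugating enzymes, 55 F-box proteins and all single-symbol genes in each horse of the escalating dose (E1 to E4) and the low dose (L1 to L5). The conjugating enzymes lie between -1.08 and -1.78 in the escalating regimen, where the F-box proteins lie between -0.17 and -0.06, and within 0.48 of 0 at the low dose.

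Changes at the escalating dose moved with brightness, and the classes differed in brightness. Over the 8 arrays the median level was 6.10 for the conjugating enzymes and 4.91 for the F-box proteins. Across genes the mean level correlated with the change at r = -0.505 (rho = -0.518) over the 28 conjugating enzymes and r = -0.627 (rho = -0.596) over the 55 F-box proteins, a description across genes of the same arrays, which also enter both measures. In the brightest of 5 equal groups of genes, 15 of 16 conjugating enzymes were lower (median -1.72), as were 8 of 13 F-box proteins (median -0.66) and 74.5% of all genes (median -1.15). In the next group 4 of 4 conjugating enzymes were lower (median -2.01), against 6 of 13 F-box proteins (median -0.50) and 38.5% of all genes (median -0.30). In the dimmest group 5 of 9 F-box proteins were higher (median 0.53), as were 31.2% of all genes (median 0.22).

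After subtraction of the median change of genes of the same brightness, a comparison added after the data were seen, the median was -0.44 for the conjugating enzymes, with 23 of 28 below 0, and -0.01 for the F-box proteins, with 29 of 55 below 0. The difference between the classes was then -0.39, -0.49, -0.41 and -0.33 in E1 to E4, below 0 in every horse and nearer 0 than before. UBE2F, UBE2A and UBE2M lay farthest below genes of their brightness (-2.47, -2.12 and -2.10), and UBE2U (2.63), FBXW7 (1.37), UBE2J1 (1.26), FBXO7 (1.24) and FBXL13 (1.19) farthest above.

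**Figure D5:**
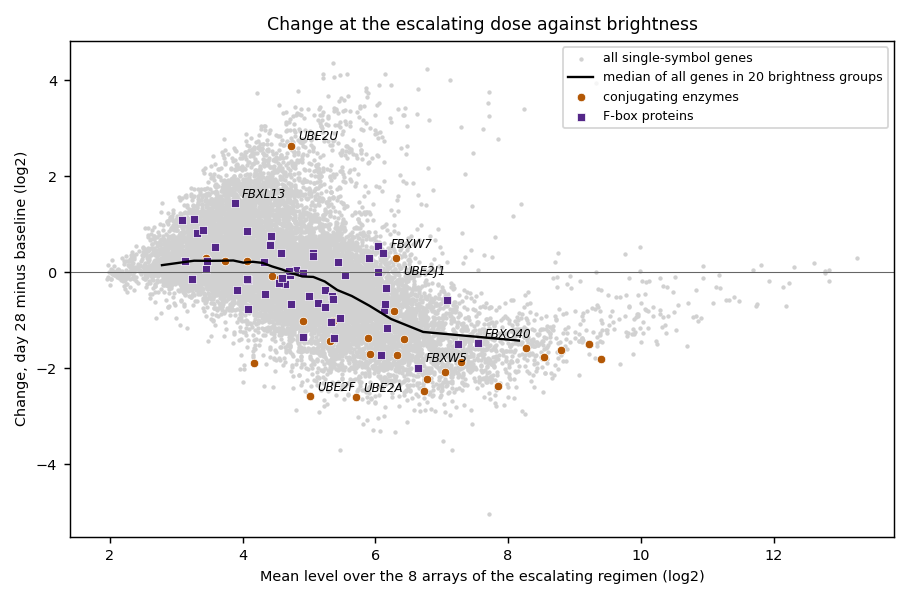
Change at the escalating dose (y axis, day 28 minus baseline, log2) against the mean level over the 8 arrays (x axis, log2) for all single-symbol genes (grey), conjugating enzymes (orange circles) and F-box proteins (purple squares), with the median of all genes along brightness in black. Bright genes lie below 0 and dim genes slightly above; UBE2F, UBE2A and FBXW5 lie below the line, and UBE2U, FBXL13 and FBXW7 above it.

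The partners of both classes were examined as lists of pathway genes, to be read beside the 28.4% of all single-symbol genes called lower and, for bright genes, the 74.5% of the brightest group. At the escalating dose 4 of 7 activating enzymes were lower, among them UBA1, the main ubiquitin activating enzyme, which fell by 1.86 (SE 0.24, adjusted p = 8.1e-04). The others were SAE1 (-1.57), which activates SUMO, and UBA3 (-0.72) and NAE1 (-0.91), which activate NEDD8. The call of NAE1 was lost after cyclic loess, by the paired test and without E2 or E3. UBA6 (-0.18, adjusted p = 0.45), UBA7 (-0.15, adjusted p = 0.51) and UBA2 (-0.39, adjusted p = 0.053) were not called. Of the 20 measured cullin-RING and NEDD8 genes 13 were lower and 2 higher (median -0.93), including the F-box anchor SKP1, which fell by 1.93 (SE 0.15, adjusted p = 1.3e-04), and CUL4A, which fell by 2.50 (SE 0.21, adjusted p = 1.7e-04). This list also held SKP2, CCNF and BTRC, F-box proteins whose symbols the rule does not match. SKP2 was called higher (0.505, adjusted p = 0.049), and CCNF (0.22, adjusted p = 0.38) and BTRC (-0.35, adjusted p = 0.16) were not called. Of the 9 subunits of the COP9 signalosome, which takes NEDD8 off cullins, 8 were lower (median -1.31), and COPS6 fell by 3.07 (SE 0.26, adjusted p = 1.7e-04). Of the 15 measured genes of the anaphase-promoting complex 4 were lower and 1 higher (median -0.18). The single measured ubiquitin precursor, RPS27A, fell by 0.93 (SE 0.17, adjusted p = 0.0041). The muscle ligases left out by the rule, FBXO32, FBXO30 and TRIM63, fell by 0.99, 0.87 and 1.35, but the calls of FBXO32 and FBXO30 were lost after quantile normalization (-0.27 and -0.34), after cyclic loess (0.24 and 0.13) and by the paired test, and that of FBXO30 also without E2, E3 or E4.

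Markers of other cell types also differed between day 28 and baseline in the escalating regimen. Leukocyte markers were higher for 4 of 5 genes (list mean 5.28 to 5.40 on day 28, against 4.23 to 4.79 at baseline) and endothelial markers lower for 3 of 4 (5.00 to 5.36, against 6.37 to 6.95). Red blood cell markers were higher for 2 of 3 (3.46 to 3.89, against 3.03 to 3.18), proliferation genes for 4 of 10 (3.85 to 3.95, against 3.28 to 3.42), and muscle markers were lower for 3 of 7 (10.7 to 10.9, against 11.2 to 11.3). Adipocyte markers were lower for 1 of 4 (5.19 to 5.31, against 5.21 to 8.15), and skin markers were higher for 2 and lower for 1 of 4 (3.74 to 3.97, against 3.22 to 4.69). No marker averaged 0 at either time, but neither did any single-symbol gene, the dimmest averaging 1.96 over the 8 arrays, so that this does not show detection. The dimmest of 5 equal groups of genes spanned 1.96 to 3.78, which holds the baseline list means of the red blood cell and proliferation genes. The part of these shifts in the changes of either class was not tested, and in whole biopsies fewer cells of a type and less RNA per cell cannot be told apart.

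At the low dose no member was called by limma, by the methods' paired test or by any other fit, and 0% of all probesets were called. At an unadjusted p under 0.05, 12 members were higher on day 14 and 0 lower (3 of 28 conjugating enzymes and 9 of 55 F-box proteins), beside 8.72% of all probesets, 4.37% higher and 4.35% lower. Of the 16661 single-symbol genes 882 were higher and 505 lower at that threshold. The median change was 0.26 for conjugating enzymes, 0.12 for F-box proteins and 0.02 for all single-symbol genes. Above 0 lay 22 of 28 and 34 of 55 members, beside 9060 of the 16661 single-symbol genes. In single horses the class difference was 0.34, 0.17, 0.07, 0.17 and -0.03 in L1 to L5 (mean 0.14 ± 0.14, SD, n = 5). Of the marker lists none held a called gene at the low dose, but the skin list had a median change of -1.96 (list mean 1.76 to 2.42 on day 14, against 2.38 to 5.89 at baseline), with KRT1 at -4.21 (adjusted p = 0.49) and KRT5 at -2.43 (adjusted p = 0.46), and its part in the changes of either class was not tested.

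FBXO25 and UBE2F had the smallest p-values at the low dose. FBXO25 had values of 3.63, 3.37, 3.02, 2.15 and 1.96 on day 14 in L1 to L5, against 2.61, 2.09, 2.31, 1.64 and 1.73 at baseline, a change of 0.75 (SE 0.19, adjusted p = 0.46, higher in 5 of 5 horses). UBE2F had values of 5.01, 5.16, 4.85, 3.71 and 4.39 on day 14, against 3.99, 4.44, 4.67, 2.35 and 2.13 at baseline, a change of 1.11 (SE 0.29, adjusted p = 0.46, higher in 5 of 5 horses). The groups overlapped for both genes, and the change of UBE2F was greatest in L5 and L4 and smallest in L3. UBE2E1 changed by 0.47 (SE 0.14, adjusted p = 0.49, higher in 5 of 5 horses). The 3 members with the smallest p-values in the other direction, FBXO17 (-0.43), FBXO41 (-0.32) and FBXW9 (-0.30), had adjusted p-values of 0.57, 0.60 and 0.66.

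In L4 and L5 several enzymes that were bright in L1, L2 and L3 were dim at both times. UBE2D1 had values of 7.91, 8.17, 7.64, 4.79 and 2.10 on day 14, against 7.77, 7.88, 7.88, 4.81 and 2.61 at baseline, and UBE2R2 had values of 7.31, 7.25, 7.43, 5.40 and 2.30 on day 14, against 7.13, 7.26, 7.18, 4.19 and 2.40 at baseline. The gap between L5 and L1 to L3 thus exceeded any change with time. Without L4 and L5 no member was called, although 178 probesets were; the class medians were 0.33 and 0.13, and 8 conjugating enzymes and 10 F-box proteins were higher and 0 lower at an unadjusted p under 0.05, beside 8.67% of all probesets higher and 7.76% lower.

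The change at the escalating dose differed from that at the low dose for 45 of the 83 members in the fit of all 18 arrays, beside 36.6% of all probesets. For 37 the escalating change was the lower (21 conjugating enzymes and 16 F-box proteins), beside 16.9% of all probesets, and for 8 the higher (1 and 7), beside 19.7%. The member counts were 29 and 2 after quantile normalization, 44 and 4 after median centring, and 17 and 4 after cyclic loess. The shares over all probesets under these scalings were not computed for this difference. The difference was -3.68 for UBE2F (SE 0.40, adjusted p = 6.9e-05), -2.18 for UBE2R2 (SE 0.27, adjusted p = 1.7e-04), -2.89 for UBE2D2 (SE 0.40, adjusted p = 2.9e-04) and -1.52 for FBXO25 (SE 0.27, adjusted p = 0.0012). It was 2.49 for UBE2U (SE 0.23, adjusted p = 3.0e-05), 1.22 for FBXL13 (SE 0.22, adjusted p = 0.0014) and 1.04 for FBXO47 (SE 0.19, adjusted p = 0.0016). The low dose group means of UBE2U, FBXL13 and FBXO47 were only 1.39 to 1.90. The dimmest of 5 equal groups of genes spanned 1.19 to 2.06 there, so that a change of such genes may be hard to measure. Of the 21 conjugating enzymes that were lower at the escalating dose, 17 had changes above 0 at the low dose, and of the 18 such F-box proteins 10 did. Of all 16661 single-symbol genes 9060 lay above 0 at the low dose, a share near that of these F-box proteins.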

How the data were processed

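The authors deposited log2 intensities, 1 per probeset and array, made by RMA with perfect-match probes only in Affymetrix Expression Console; which arrays were normalized together is not given in the sources used here. Values were used as deposited. Probesets were named from the platform annotation, and 16789 had a single symbol. limma 3.58.1 (R 4.3.3) compared day 28 or day 14 with baseline, horse as a block, with Benjamini-Hochberg adjustment over 30559 probesets (30558 at the low dose, 1 missing value); the fit of all 18 arrays tested the difference between regimens. The fit was tested on simulated data. Pairs were made by the horse names in the sample titles. Deviations of a horse's 2 arrays from their group means correlated at -0.02 to 0.12 (escalating) and 0.42 to 0.70 (low dose). The best matching baseline was the horse's own for E2, L3, L4 and L5, and not for E1, E3, E4, L1 and L2. The values of the escalating regimen thus do not bear out its pairing by themselves. Of the arrays, 0 held identical values. Array intensities carry no read depth, so that the number of horses limits precision.

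Members and lists were chosen with earlier results of these data known. Named were the members of each class with the largest changes, those with the smallest p-values at the low dose and between regimens, members with a listed role, and up to 3 genes of each pathway list. Alternatives were other scalings, filters, variances and tests, the block, and horses left out.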

Additional observations from a re-analysis of the deposited data

Results flagged for a closer look

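Of 100 groups of values examined over 25 named genes, 5 held a sample far from the others by Dixon's test, a rate of about 1 in 20 being that given by chance. The baseline value of UBE2L3 was 8.64 in E3, with the other horses of the escalating regimen at 9.12 to 9.18. UBE2D2 was 8.30 at baseline in E2, with the others at 7.73 to 7.78, and 2.46 on day 14 in L5, with the others at 6.21 to 7.51. FBXO21 was 2.44 at baseline in L4, with the others at 3.19 to 3.48, and FBXO41 was 4.80 at baseline in E2, with the others all at 4.66.

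For 21 of the 25 members named for the size or the p-value of their change, the change at the escalating dose differed from that at the low dose in the fit of all 18 arrays. The share over all probesets was 36.6%. Since some of these members were named for that same p-value and others for large escalating changes, their count was largely set by the choice. The escalating minus low dose difference was -2.52 for UBE2A, -3.68 for UBE2F, -2.92 for UBE2V1, -2.36 for UBE2L3, -2.89 for UBE2D2, -2.34 for UBE2G2, -2.18 for UBE2R2 and -1.28 for UBE2E1, and 2.49 for UBE2U. Among F-box proteins it was -1.87 for FBXW5, -1.63 for FBXO31, -1.36 for FBXL17, -1.77 for FBXO40, -1.21 for FBXO21, -1.91 for FBXL18 and -1.52 for FBXO25, and 1.22 for FBXL13, 1.04 for FBXO47, 0.78 for FBXO15, 0.95 for FBXL21 and 0.69 for FBXL2.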

How the results depend on the processing

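The 21 lower conjugating enzymes at the escalating dose came to 16 to 22 under the settings tried, and no member was called at the low dose under any. The conjugating enzymes called higher were 2 after quantile normalization and after cyclic loess. Higher F-box proteins numbered 2 among the brighter 50% of probesets, 5 by the methods' paired test, 3 with E1 and E4 left out, and 7 to 9 with 1 horse left out; lower ones numbered 7 by the paired test and 11 to 14 with 1 horse left out. Without the replicate block the counts were 21 and 1 for conjugating enzymes and 18 and 9 for F-box proteins, and the block changed no call of the low dose. The class difference was -0.81 after quantile normalization, -0.45 after cyclic loess and -0.40 against genes of the same brightness. Members with a higher escalating than low dose change numbered 2 after quantile normalization and 4 after median centring and after cyclic loess, and 5 to 8 with 1 horse left out, and those with a lower change 17 after cyclic loess; the cause was not tested.

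The scaling moved the median change of all probesets, which was 0.08 as deposited, -0.10 after quantile normalization, -0.25 after median centring and -0.02 after cyclic loess, and called probesets were 54.9%, 44.2%, 33.1% and 54.4% higher. Some changes turned their sign. At the escalating dose the change of FBXO27 was -0.32, that of FBXO41 -0.19, UBE2C -0.10, UBE2Q2 -0.13 and UBE2T -0.17 after quantile normalization. After median centring it was -0.25 for FBXO27, -0.30 for FBXO41, -0.0275 for UBE2C, -0.035 for UBE2J1, -0.0875 for UBE2Q2 and -0.09 for UBE2T. After cyclic loess it was -0.29 for FBXO27, -0.14 for FBXO41, -0.068 for UBE2C, -0.13 for UBE2Q2 and -0.17 for UBE2T, and the atrophy ligases FBXO30 and FBXO32 stood at 0.13 and 0.24. FBXO41 ranged from -0.073 (without E3) to 0.087 with 1 horse left out. With E1 and E4 left out FBXO2 was at 0.045, FBXW7 at -0.035 and UBE2J2 at 0.065. The escalating minus low dose difference was -0.045 for FBXO4 and -0.18 for FBXW9 after quantile normalization, -0.033 for FBXO41 and -0.22 for FBXW9 after median centring, and -0.10 for FBXO4, 0.50 for FBXO17 and -0.10 for FBXW9 after cyclic loess. FBXO17 ranged from -0.21 to 0.05 (without L3) with 1 horse left out, and FBXW9 was at -0.078 without L4 and L5. Of these values only those of FBXO30 and FBXO32 had passed the test as deposited.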
